A study of Mus musculus with 6 samples.

Results

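The genes described here mark the neurons and glia of the cardiac ganglia, the small clusters of autonomic nerve cells that settle on the heart around the arterial and venous poles. They were chosen by name and comprise *Phox2a*, *Ret*, *Th*, *Dbh*, *Stmn2*, *Tubb3*, *Prph* and *Sox10*, 8 of the 46983 genes listed in the deposited count table. Each of the 8 symbols matched 1 row, and all 8 were among the 17473 genes kept by the filter on low counts. Total RNA of whole E13.5 hearts, 1 heart per library, was sequenced from 3 mutant embryos (replicates 1, 5 and 10) and 3 controls (replicates 2, 3 and 5) on a mixed C57BL/6 x DBA/2 background. The mutant genotype is TnnT2Cre;Wt1flox, in which a cardiac troponin T promoter drives Cre in cardiomyocytes and both *Wt1* alleles carry loxP sites. The labels call the controls wild type, whereas the methods of the study describe them as Cre-negative embryos that carry the same floxed *Wt1* alleles. No label assigns the embryos to litters or sequencing batches, and the study describes recombination by this driver in part of the epicardium as well. Where 3 values per group follow each other below, they stand for wild type replicates 2, 3 and 5 and for mutant replicates 1, 5 and 10, in that order.

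Cardiac ganglion cells descend from the neural crest, whose cells migrate along the vagus nerve and the great vessels and then become either neurons or satellite glia. The homeodomain factor PHOX2A takes part in specifying autonomic neurons and switches on the enzymes of noradrenaline synthesis, of which tyrosine hydroxylase (*Th*) makes L-DOPA and dopamine beta-hydroxylase (*Dbh*) turns dopamine into noradrenaline. RET is the tyrosine kinase receptor through which the GDNF family of ligands guides and sustains these neurons. *Tubb3*, *Stmn2* and *Prph* encode cytoskeletal proteins of neurons, and *Sox10* encodes a factor of migrating crest cells that is retained in glia and melanoblasts.

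The upstream sequences of 3 members are shown because they hold, or lack, the short motifs by which homeodomain factors and cyclic AMP act on noradrenergic genes. Of the 8 members, 5 were matched in the RefSeq promoter table (GRCm38.p6), and the 250 bases before the start are given 5′ to 3′ on the gene's strand. Capitals mark the homeodomain core TAAT (in either orientation) and the full cyclic AMP response element TGACGTCA. The Dbh sequence covers chr2:27165257-27165506 (plus strand), the Th sequence chr7:142899996-142900245 (minus strand) and the Prph sequence chr15:99054924-99055173 (plus strand). Starts are those of RefSeq, and the *Dbh* and *Th* windows lie inside the wider gene intervals of GENCODE M21 given below.
Dbh: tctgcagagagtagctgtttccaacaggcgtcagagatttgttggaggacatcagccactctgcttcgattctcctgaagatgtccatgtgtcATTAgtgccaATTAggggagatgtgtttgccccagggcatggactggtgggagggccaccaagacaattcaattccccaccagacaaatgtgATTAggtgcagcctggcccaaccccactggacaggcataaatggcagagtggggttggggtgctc
Th: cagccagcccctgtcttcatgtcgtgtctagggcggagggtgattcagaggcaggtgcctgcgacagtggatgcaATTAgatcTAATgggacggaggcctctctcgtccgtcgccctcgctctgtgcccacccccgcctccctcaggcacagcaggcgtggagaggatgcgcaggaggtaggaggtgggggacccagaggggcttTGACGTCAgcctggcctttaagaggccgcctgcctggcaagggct
Prph: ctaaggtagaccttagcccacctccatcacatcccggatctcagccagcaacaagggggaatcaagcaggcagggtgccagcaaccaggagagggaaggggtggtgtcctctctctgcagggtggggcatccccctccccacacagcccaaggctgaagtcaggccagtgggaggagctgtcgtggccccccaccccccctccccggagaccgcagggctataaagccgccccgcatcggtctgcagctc
The *Dbh* sequence held 3 TAAT cores and the *Th* sequence 2, beside 1 full response element between 45 and 38 bases before the start. None of these motifs was found in the 250 bases of *Prph*, *Phox2a* or *Tubb3*. Among 32851 promoters of the same length, 54.9% held a TAAT core and 1.55% the full response element, so a TAAT core is common in windows of this length. The core of the WT1 and EGR site (GCGTGGG, both strands) was found in 4.30% of all promoters and in 0 of these 5. E-boxes (CANNTG) occurred in 66.2% of all promoters and were present 2 times in *Dbh* and 1 time in *Th*. A match in letters shows neither binding nor regulation.

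The depth of the libraries lay between 44244665 and 56373393 counts. Wild type replicate 5, the shallowest, stood apart from the others, since its deviations from the mean log2 CPM (counts scaled to the library size) fell with gene length (Spearman's rho −0.556 across 11795 genes), whereas rho lay between −0.0622 and 0.464 in the other 5 hearts. It held the highest value of the 6 hearts in 29.3% of the genes tested and the lowest in 31.1%. Heart muscle transcripts were abundant in every library, with *Tnnt2*, the cardiac troponin T gene, between 3875 and 4483 CPM. *Wt1*, the floxed gene, had 39.97, 32.9 and 19.97 CPM in wild type and 17.7, 33.3 and 35.7 in mutant embryos, which overlap and do not separate the groups. Counts over a whole heart do not tell recombined from intact alleles. Markers of neighbouring tissues varied strongly between hearts and are given beside *Phox2a*.

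The ganglion genes were rare transcripts in these hearts. FPKM, the deposited level per length of gene and depth of library, divides out length, but its lengths are those the authors used and differ from the exon bases annotated in GENCODE M21 (1609 against 5602 for *Stmn2*, 1379 against 2692 for *Dbh* and 1265 against 2364 for *Th*). In wild type hearts the level descended from *Tubb3* (5.22 ± 1.66 FPKM, SD, n = 3) and *Stmn2* (3.25 ± 1.69) to *Dbh* (0.787 ± 0.399), *Th* (0.551 ± 0.185), *Sox10* (0.549 ± 0.172), *Prph* (0.456 ± 0.0982), *Phox2a* (0.381 ± 0.406) and *Ret* (0.160 ± 0.112). The only neighbours in this order whose ranges did not overlap were *Stmn2* and *Dbh*. In mutant hearts *Tubb3* (6.38 ± 1.72 FPKM, SD, n = 3) and *Stmn2* (1.88 ± 0.392) again led, and *Prph* (1.22 ± 0.331) was the third, above *Dbh* (0.619 ± 0.157) in each of the 3 hearts. The ranges of *Tubb3*, *Stmn2*, *Prph* and *Dbh* did not overlap between neighbours there, while *Dbh*, *Sox10* (0.422 ± 0.0516), *Th* (0.372 ± 0.137), *Phox2a* (0.220 ± 0.191) and *Ret* (0.156 ± 0.0529) ran into each other. With annotated exon bases as the length, an alternative chosen after the data were seen, *Tubb3* stayed first and *Ret* last in both groups, but *Prph* (1.11 ± 0.301, SD, n = 3) stood above *Stmn2* (0.539 ± 0.113) in mutant hearts, and *Sox10* (0.488 ± 0.152) and *Prph* (0.415 ± 0.0893) above *Dbh* (0.403 ± 0.204) in wild type hearts. The order between the first and the last gene thus depends on the length used.

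**Figure D1:**
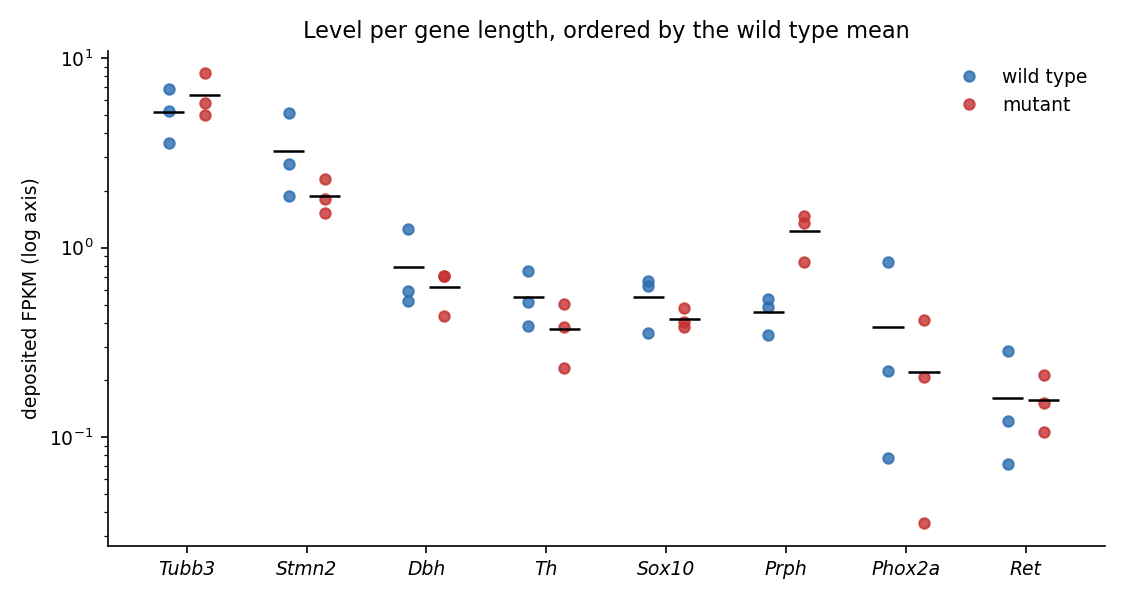
Deposited FPKM (log axis) of the 8 ganglion genes, ordered by the wild type mean. Points are hearts (blue wild type, red mutant, 3 each) and bars are group means. *Prph* is the sixth in wild type (mean 0.456 FPKM) and the third in mutant hearts (mean 1.22 FPKM) with the deposited lengths, and the fourth and the second with annotated exon bases.

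Mutant hearts were compared with wild type hearts for each of the 8 genes. One gene, *Prph*, was higher in every mutant heart than in every wild type heart, by 2.73-fold in the fitted estimate. The other 7 overlapped between the groups, and for 6 of the 8 the highest value of all hearts was that of wild type replicate 5. In the quasi-likelihood test of edgeR 0 of the 8 had an adjusted p under 0.05, as did 0 of the 17473 genes tested (0%). One member (*Prph*) had an unadjusted p under 0.05, where 5.73% of all genes had one, 3.14% with the mutant higher. It was also the 1 member whose groups did not overlap, where 11.2% of all genes did, 6.61% with the mutant higher and 4.59% with it lower. These shares do not set the 8 genes apart from the background. DESeq2 gave 1 member, again *Prph*, an adjusted p under 0.05, and 0.690% of the genes that it could call. In whole hearts, fewer cells of a type and less RNA per cell cannot be told apart.

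**Figure D2:**
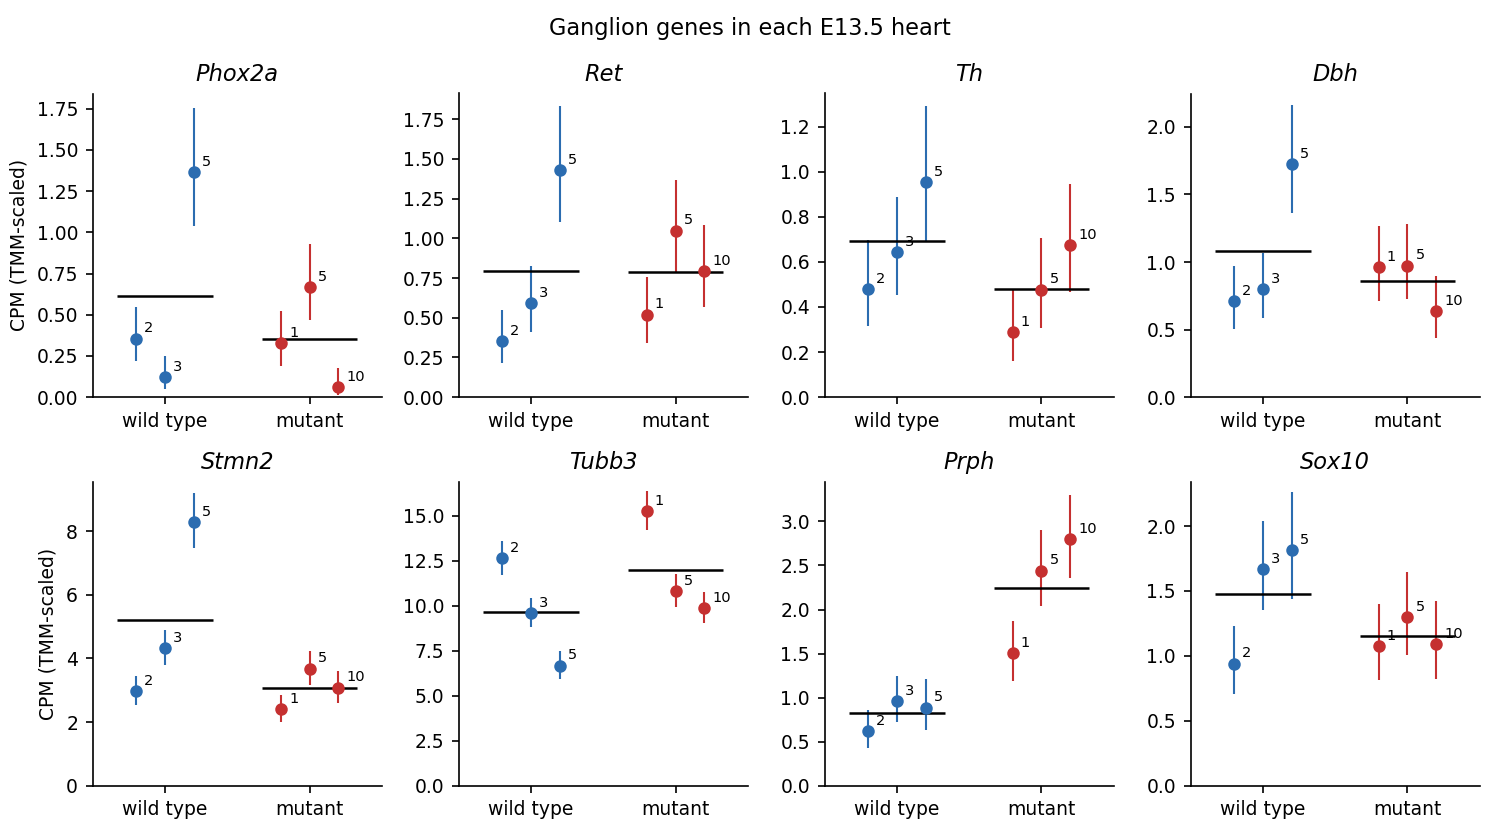
CPM of each ganglion gene in each heart, scaled to TMM library sizes, with the replicate number beside each point. Error bars are exact 95% Poisson intervals of the count and cover counting error only, and horizontal bars are group means of 3 hearts. *Prph* is the gene whose groups do not overlap, at 0.621 to 0.956 CPM in wild type and 1.501 to 2.80 CPM in mutant hearts.

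*Phox2a* (ENSMUSG00000007946, chromosome 7 from 101818313 to 101822726, GRCm38) encodes a paired homeodomain factor of autonomic neurons. It had 20, 7 and 60 counts in wild type and 17, 35 and 3 in mutant embryos. The spread within each group thus reached 11.2-fold in CPM, in the wild type as in the mutant hearts. At 1.36 CPM (exact 95% Poisson interval 1.04 to 1.76), wild type replicate 5 lay beyond the counting error of wild type replicate 3 at 0.122 CPM (interval 0.0489 to 0.251). Group means were 0.613 ± 0.660 CPM (SD, n = 3) for wild type and 0.351 ± 0.305 CPM for mutant embryos. On the log2 scale, mutant over wild type gave −0.77 (standard error 0.95, edgeR adjusted p = 0.985), with a 95% interval from −2.95 to 1.41, and it was 0.56 without wild type replicate 5. *Inppl1*, transcribed from the other strand, shares 4.67% of the exon bases of *Phox2a*, and as the strand setting of the counting is not stated, reads on those bases are uncertain.

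Markers of foregut and lung epithelium, a tissue that lies against the dorsal side of the heart, were mostly highest in the same 2 hearts as *Phox2a*. Of 9 listed genes, 7 had their 2 highest values in wild type replicate 5 and mutant replicate 5, as did 3 of the 8 ganglion genes (*Phox2a*, *Dbh* and *Ret*). The exceptions were *Cdh1*, with 107 counts in wild type replicate 3 against 63 in wild type replicate 5, and *Sftpc*, highest in mutant replicate 1 with 7 counts. The share of all genes with this pair of highest hearts was not determined. Wild type replicate 5 alone was the highest heart in 29.3% of the genes tested. *Th*, *Stmn2* and *Sox10* were also highest in wild type replicate 5, but mutant replicate 5 was not their second highest heart. *Nkx2-1*, which defines the lung and thyroid endoderm, had 64 counts in wild type replicate 5 and 65 in mutant replicate 5, against 0 counts in wild type replicates 2 and 3, 8 in mutant replicate 1 and 0 in mutant replicate 10. The 9 listed genes summed to 20.6 CPM in wild type replicate 5 and 20.2 CPM in mutant replicate 5. In the other hearts their sum lay between 0.941 and 3.81 CPM. None of the 9 was at 0 in all hearts, 6 were tested and 0 of these had an unadjusted p under 0.05 (*Foxa1* with a log2 fold change of 0.70, standard error 1.64, and *Foxa2* with −0.55, standard error 1.57, had the smallest p). The sum ran from 0.941 to 20.6 CPM in wild type and from 1.15 to 20.2 CPM in mutant hearts, and its part in the values of *Phox2a*, *Dbh* and *Ret* was not tested. *Dct*, a melanoblast enzyme gene, was also highest in these 2 hearts, with 73 and 84 counts against 6 to 35 in the other 4. The other listed melanocyte genes did not share this pair. *Mitf* (35.4 CPM) and *Kit* (15.8 CPM) were lowest in wild type replicate 5, and *Pmel* was highest in mutant replicate 10. *Tyr* and *Mlana* were highest in mutant replicate 5 but not second highest in wild type replicate 5, and *Tyrp1* had 0 counts.

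**Figure D3:**
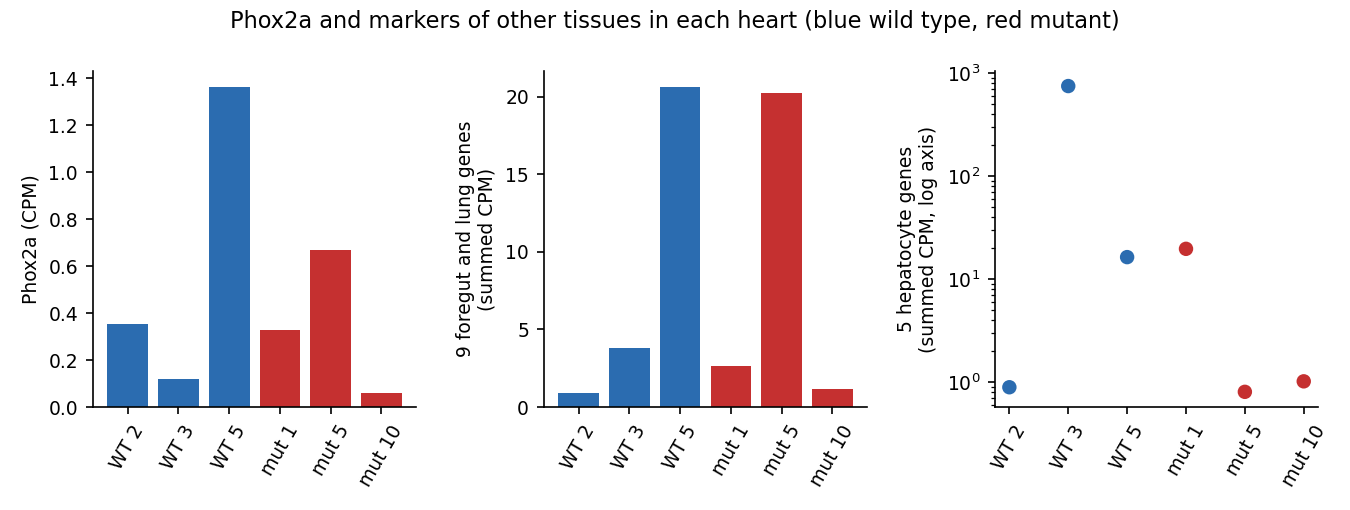
*Phox2a* (CPM), the summed CPM of 9 foregut and lung epithelium genes and the summed CPM of 5 hepatocyte genes (log axis) in each heart, with wild type in blue and mutant in red. Wild type replicate 5 and mutant replicate 5 are highest in the first 2 panels, and wild type replicate 3 is highest for the hepatocyte genes, at 744 CPM.

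*Ret* (ENSMUSG00000030110, chromosome 6 from 118151745 to 118197718) had 0.355, 0.591 and 1.43 CPM in wild type and 0.519, 1.05 and 0.795 in mutant embryos. The mutant values lay inside the wild type range. Means were nearly equal, at 0.793 ± 0.566 and 0.788 ± 0.265 CPM (SD, n = 3 each), and the log2 fold change was 0.0069 (standard error 0.53, edgeR adjusted p = 0.9995, 95% interval −1.22 to 1.24). Without wild type replicate 5 it was 0.73, and its sign turned negative in 9 of the 22 alternative fits, so these hearts give no direction for the receptor. Wild type replicate 5 and mutant replicate 5, the hearts with the highest sums of foregut markers, were also its highest 2.

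*Th* (ENSMUSG00000000214, chromosome 7 from 142892752 to 142931128), the rate-limiting enzyme of catecholamine synthesis, had 0.479, 0.643 and 0.954 CPM in wild type embryos. In the mutant embryos it had 0.289, 0.477 and 0.676 CPM. The lowest heart was a mutant and the highest a wild type, with the middle values interleaved. Its log2 fold change was −0.52 (standard error 0.44, edgeR adjusted p = 0.985, 95% interval −1.53 to 0.49). The estimate was negative in each of the 22 alternative fits, between −0.84 and −0.17.

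*Dbh* (ENSMUSG00000000889, chromosome 2 from 27165233 to 27183200), whose window before the RefSeq start carries the 3 homeodomain cores shown above, had 0.710, 0.800 and 1.73 CPM in wild type embryos. The mutant embryos had 0.962, 0.973 and 0.636 CPM. Apart from wild type replicate 5, which was 2.29 times the mean of the other wild type hearts, all values lay within 0.636 and 0.973 CPM. The second highest was mutant replicate 5, the other heart with a high sum of foregut markers, by a narrow margin over mutant replicate 1. The log2 fold change was −0.32 (standard error 0.41, edgeR adjusted p = 0.985, 95% interval −1.28 to 0.63) and 0.18 without that heart. *Th* and *Dbh* were thus both detected in every heart, at 15 to 42 and 32 to 76 counts, while *Phox2a* had 3 counts in mutant replicate 10.

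*Stmn2* (ENSMUSG00000027500, chromosome 3 from 8509360 to 8561606) encodes stathmin-2, which regulates microtubules in growing axons. It had 2.97, 4.33 and 8.29 CPM in wild type and 2.40, 3.68 and 3.08 in mutant embryos. Wild type replicates 3 and 5 lay above all mutant hearts, and wild type replicate 2 among them. Its log2 fold change was −0.76 (standard error 0.37, edgeR adjusted p = 0.915, 95% interval −1.61 to 0.088), or −0.26 without wild type replicate 5. DESeq2 gave it an unadjusted p of 0.0339 and an adjusted p of 0.738.

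*Tubb3* (ENSMUSG00000062380, chromosome 8 from 123411424 to 123422015) encodes the beta-tubulin of neurons. It had 12.6, 9.58 and 6.68 CPM in wild type and 15.3, 10.8 and 9.88 in mutant embryos. Here wild type replicate 5 was the lowest heart rather than the highest. The log2 fold change was 0.31 (standard error 0.25, edgeR adjusted p = 0.985, 95% interval −0.27 to 0.90), and 0.11 without wild type replicate 5. *Tubb3* and *Stmn2*, the most abundant members and both known as general neuronal genes, therefore did not vary together over these hearts.

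*Prph* (ENSMUSG00000023484, chromosome 15 from 99055174 to 99058978, plus strand) encodes peripherin, an intermediate filament of peripheral and autonomic neurons. It had 35, 55 and 39 counts in wild type and 78, 128 and 141 in mutant embryos. In CPM the wild type hearts lay at 0.621, 0.956 and 0.886 and the mutant hearts at 1.501, 2.44 and 2.80, so that the lowest mutant heart was above the highest wild type heart. Means were 0.821 ± 0.177 CPM and 2.25 ± 0.672 CPM (SD, n = 3 each), and wild type replicate 5 did not stand apart for this gene. The log2 fold change was 1.45 (standard error 0.33, 95% interval 0.70 to 2.20), with an unadjusted p of 0.00208 and an adjusted p of 0.385 from the quasi-likelihood test of edgeR. *Prph* rose by the criterion of DESeq2 (log2 fold change 1.45, standard error 0.36, adjusted p = 0.0122). That call was lost when wild type replicate 2 (adjusted p = 0.169), mutant replicate 5 (0.290) or mutant replicate 10 (0.399) was left out, and over all alternatives the adjusted p ran from 0.00259 to 0.9999. The edgeR estimate stayed between 1.26 and 1.67 with any 1 heart left out. No annotated gene of GENCODE M21 overlaps *Prph*.

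**Figure D4:**
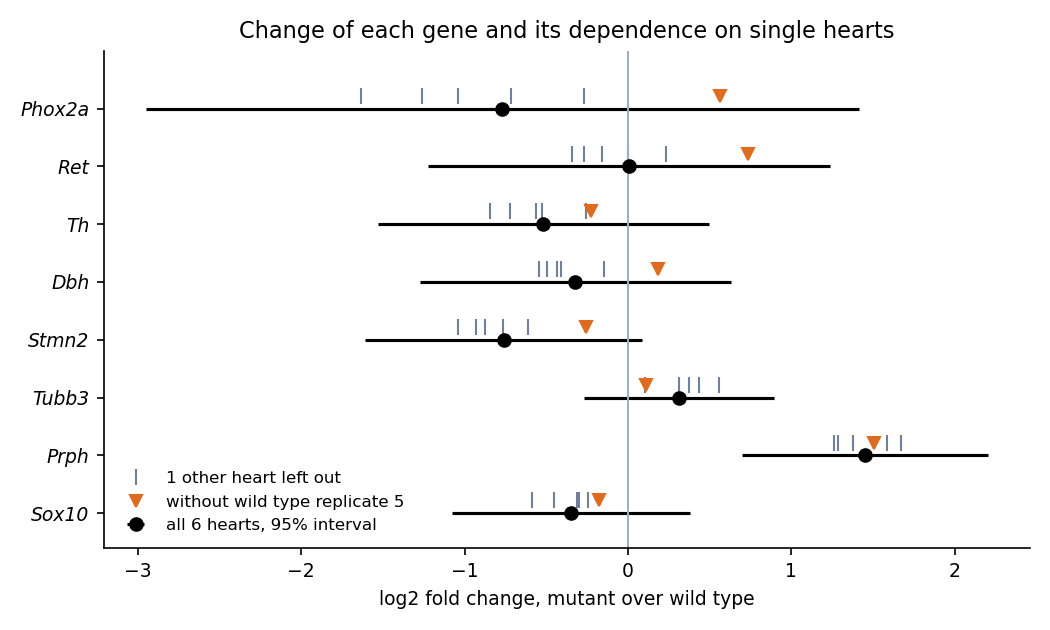
Log2 fold change (mutant over wild type) of each ganglion gene from edgeR with all 6 hearts (black, with its 95% interval), without wild type replicate 5 (orange triangle) and without each other heart (grey ticks). The interval of *Prph* (0.70 to 2.20) excludes 0 and the other 7 include it, while *Phox2a* and *Dbh* change sign without wild type replicate 5.

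*Sox10* (ENSMUSG00000033006, chromosome 15 from 79154908 to 79165240), the glial and crest factor, had 0.941, 1.67 and 1.82 CPM in wild type and 1.08, 1.30 and 1.09 in mutant embryos. The mutant hearts were close together, between wild type replicate 2 and the other wild type hearts. The fitted difference was −0.35 on the log2 scale (standard error 0.32, edgeR adjusted p = 0.985, 95% interval −1.08 to 0.38), and negative in each of the 23 alternative fits. Of 10 further genes of Schwann cell precursors and glia, all were tested, 3 were higher and 7 lower in the mutant, and the median log2 fold change was −0.29 beside −0.0010 over all genes tested. The median was −0.05 without wild type replicate 5. Of the 10, 1 had an unadjusted p under 0.05, beside 3.14% of all genes with the mutant higher. It was *Ednrb*, the endothelin receptor B that crest cells and endothelium share (edgeR unadjusted p = 0.0411, adjusted p = 0.847, log2 fold change 0.40, standard error 0.17). *Mbp* followed with 0.34 (standard error 0.27). The 7 lower genes ran from −0.77 (*Fabp7*, standard error 0.66) to −0.11 (*Erbb3*, standard error 0.20).

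The other genes of autonomic neurons were taken from fixed lists. Of 16 genes of neuronal specification and catecholamine handling 14 were tested, 5 of them higher and 9 lower in mutant hearts (median −0.06 on the log2 scale). An unadjusted p under 0.05 was reached by 1 gene in each direction, beside 3.14% of all genes with the mutant higher and 2.59% with it lower. *Ddc*, which encodes the decarboxylase that makes dopamine from L-DOPA and is also transcribed in embryonic heart muscle, stood at 59.1, 73.8 and 64.4 CPM in wild type and 102, 104 and 142 in mutant embryos. Its log2 fold change was 0.82 (standard error 0.16, edgeR adjusted p = 0.273, DESeq2 adjusted p = 9.58e-04). *Ddc* thus lay far above *Th* and *Dbh* in counts. Its groups did not overlap, as for 2 of the 14 tested genes of this list, beside 11.2% of all genes tested. *Isl1*, a LIM homeodomain gene of autonomic neurons that also marks sinus node and second heart field cells, had 5.82 ± 0.996 and 3.68 ± 0.702 CPM (SD, n = 3 each), with −0.66 on the log2 scale (standard error 0.21, edgeR adjusted p = 0.696).

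*Slc6a2*, the noradrenaline transporter of sympathetic neurons, was singled out after its values were seen. It had 1, 2 and 1 counts in the wild type and 9, 10 and 11 counts in the mutant hearts and was removed by the low-count filter. The ratio of mutant to wild type was 7.65, with an exact 95% interval from 2.70 to 29.9 that covers counting error only. With no filter, edgeR gave it an adjusted p of 0.591, and DESeq2 one of 0.445.

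Cholinergic genes, which parasympathetic neurons use, varied widely in level, and some were near the limit of detection. *Chat*, which makes acetylcholine, had 0, 0 and 0 counts in the wild type and 0, 2 and 1 in the mutant hearts. A library with 0 counts is compatible with an expected count of up to 3 (1-sided 95% Poisson limit). Of 11 cholinergic and neuropeptide genes 6 were tested, 4 higher and 2 lower in the mutant, with 0 at an unadjusted p under 0.05 and a median of 0.13. Counts a heart were 98 to 195 for *Slc5a7*, the choline transporter, and 846 to 1481 for *Ache*. *Slc5a7* had a log2 fold change of 0.45 (standard error 0.27) and the nicotinic subunit gene *Chrna5* one of −1.01 (standard error 0.49). Their edgeR adjusted p were 0.956 and 0.920.

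Of 20 general neuron genes 19 were tested, 5 higher and 14 lower in mutant hearts (median −0.16 on the log2 scale). Among these, 2 had an unadjusted p under 0.05, both lower in the mutant, where 2.59% of all genes were. *Scg2*, a secretogranin of dense-core vesicles, had 0.546 ± 0.204 and 0.174 ± 0.0188 CPM (SD, n = 3 each), which gave −1.64 on the log2 scale (standard error 0.45, edgeR adjusted p = 0.576). *Syt1*, the calcium sensor of synaptic vesicles, had 2.19 ± 0.363 and 1.21 ± 0.151 CPM, which gave −0.85 (standard error 0.25, edgeR adjusted p = 0.646). In both genes every mutant heart lay below every wild type heart, the opposite side from *Prph*, as in *Syp*, *Mapt* and *L1cam*. Such a separation was thus seen in 5 of the 19 tested genes, beside 4.59% of all genes with the mutant lower. The adjusted p of *Scg2* and *Syt1* from DESeq2 was 0.364 and 0.249.

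The ligands and receptors that keep ganglion cells alive were read from a list of 16 genes of the GDNF family and the neurotrophins, all tested, with 7 higher and 9 lower in the mutant and a median of −0.25. *Gdnf*, a ligand that reaches RET through GFRA1, had 0.334 ± 0.109 and 0.474 ± 0.181 CPM (SD, n = 3 each, edgeR adjusted p = 0.985). Of the 16 genes, 2 had an unadjusted p under 0.05, both lower in the mutant, where 2.59% of all genes were. *Ntf5*, which encodes neurotrophin 4, had 6.84, 5.41 and 5.43 CPM in wild type and 2.40, 2.58 and 1.53 in mutant embryos. Its log2 fold change was −1.44 (standard error 0.24), with an adjusted p of 0.181 from edgeR and 2.12e-05 from DESeq2. *Ngfr*, the p75 receptor of all neurotrophins, had 9.30, 16.1 and 7.998 CPM in wild type and 5.81, 4.64 and 3.46 in mutant embryos, or −1.27 on the log2 scale (standard error 0.30) with an adjusted p of 0.405 from edgeR and 0.00505 from DESeq2. The groups did not overlap for 4 of the 16 genes, *Ntf5* and *Ngfr* among them, beside 11.2% of all genes tested. *Ntf5* and *Ngfr* fell by the criterion of DESeq2, which was met by 0.690% of the genes that it could call.

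**Figure D5:**
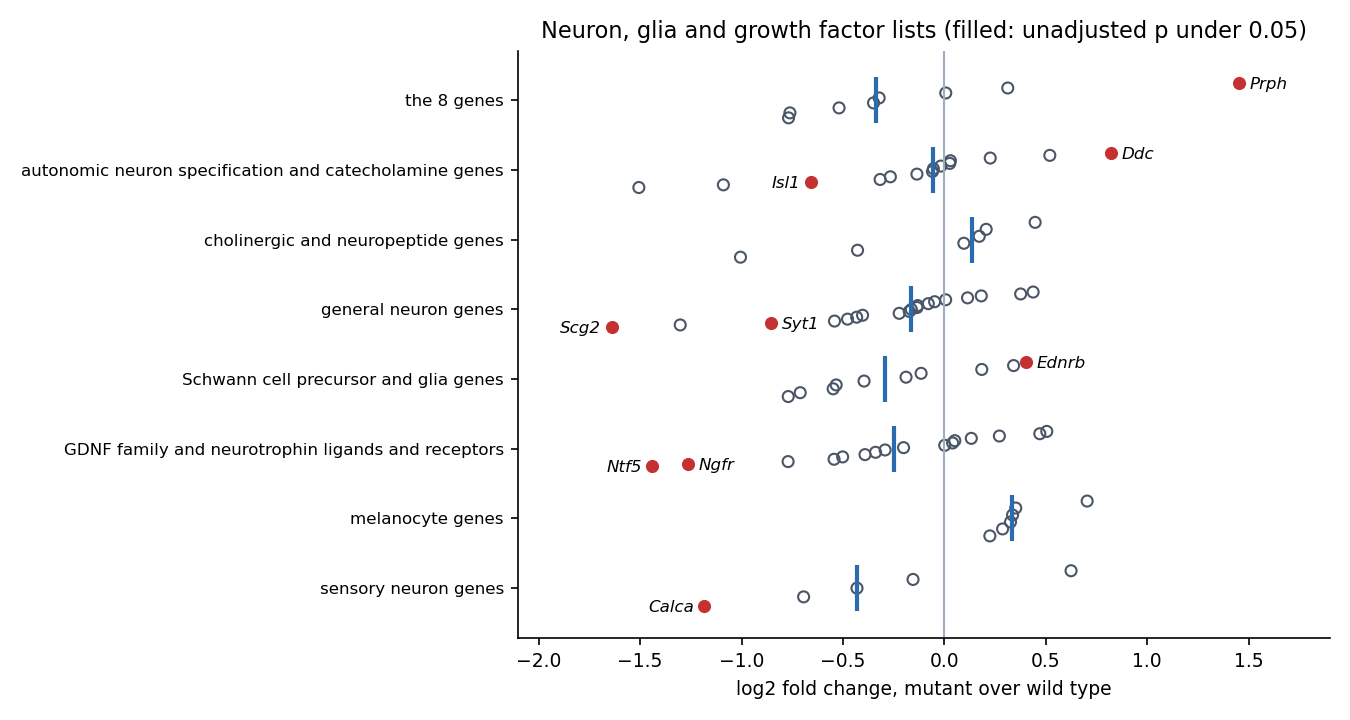
Log2 fold change (mutant over wild type, edgeR) of the tested genes of the ganglion set and of 7 lists of neuron, glia, growth factor, melanocyte and sensory neuron genes. Filled points have an unadjusted p under 0.05 and are named, blue bars are list medians. *Prph* (1.45) and *Ddc* (0.82) lie farthest to the right, and *Scg2* (−1.64) and *Ntf5* (−1.44) are the named genes farthest to the left.

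Other cells that could carry the same transcripts were examined as well. Of 9 sensory neuron genes 5 were tested, 1 higher and 4 lower (median −0.43), and *Tlx3* and *Trpv1* had 3 counts or fewer in every heart. *Pou4f1*, which defines sensory ganglia, had 3 to 15 counts, and *Tac1* a log2 fold change of −0.69 (standard error 0.58). *Calca*, the precursor of calcitonin and the peptide CGRP, had 7.10 ± 0.818 and 3.13 ± 1.10 CPM (SD, n = 3 each), or −1.18 on the log2 scale (standard error 0.27) with an adjusted p of 0.385 from edgeR and 0.00482 from DESeq2. Of 7 melanocyte genes 6 were tested and all 6 were higher in the mutant (median 0.33), with 0 at an unadjusted p under 0.05. *Tyrp1* was at 0 counts in every heart, and the smallest p were those of *Kit* (0.29, standard error 0.15) and *Mitf* (0.22, standard error 0.13), which other heart cells also express. The 5 hepatocyte genes summed to 744 CPM in wild type replicate 3 and to 0.801 to 19.6 CPM in the other hearts, and *Alb* had 17429 counts in that heart and 0 to 289 elsewhere. No ganglion gene was highest in that heart, and leaving it out turned only the sign of *Ret*. Of these, 4 were tested and 3 had an unadjusted p under 0.05, *Alb* (log2 fold change −8.12), *Ttr* (−3.18) and *Apoa1* (−4.32), and 0 without wild type replicate 3. Of 10 cardiomyocyte genes, 7 were higher and 3 lower (median 0.12), with 1 at an unadjusted p under 0.05 (*Myl7*, −0.48, standard error 0.20), followed by *Myl2* at 0.21 (standard error 0.14). Of all genes tested, 2.59% had an unadjusted p under 0.05 in edgeR with the mutant lower, the side of *Calca*, *Myl7* and the 3 hepatocyte genes. DESeq2 called 0.690% of the genes that it could call.

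The 8 genes did not share 1 pattern over the hearts, since *Tubb3* ran against their mean z score (Pearson's r −0.804 with the gene included) and *Prph* was nearly unrelated to it (0.0708), while *Ret* (0.945), *Dbh* (0.876) and *Stmn2* (0.875) followed it most closely. These r describe 6 hearts and carry no p. The mean z score of log2 CPM was 0.874 in wild type replicate 5 and 0.294 in mutant replicate 5, and between −0.584 and −0.102 in the other 4 hearts. Outside the lists, the genes most like this mean z score over the 6 hearts were *Scn3a* (Pearson's r 0.995, Spearman's rho 1), *Smox* (0.992 and 1), *Plch2* (0.984 and 1), *Zfp759* (0.984 and 1) and *Gadd45g* (0.984 and 0.943). They were picked as the highest of 17473 genes over 6 hearts, so no p is given. Their edgeR log2 fold changes ran from −0.66 to −0.03.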

How the data were processed

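Whole-heart RNA of 3 mutant and 3 control E13.5 embryos was compared. According to the study's methods, the authors trimmed reads with Trim Galore, aligned them to mm10 with STAR and assigned uniquely mapped reads to genes with featureCounts (GENCODE M19), and deposited raw counts per gene. The labels name HTSeq in its place. The strand setting is not given in the sources used here. The deposited FPKM values equal the count per gene length and total count (largest relative deviation 7.99e-15). Copies of both tables without gene names held the same values, and a table of group means was not used.

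Counts were tested with edgeR 4.0.16 (R 4.3.3): TMM factors, filterByExpr (minimum 10, total 15), a two-sided quasi-likelihood test without covariates, and Benjamini-Hochberg adjustment over 17473 genes with a threshold of 0.05. The standard error is the log2 fold change over the square root of F, and 95% intervals use the t distribution with the fit's degrees of freedom. CPM are scaled to TMM library sizes. Total counts were 44244665 to 56373393 per heart. Poisson intervals are exact and cover counting error only, since reads carry no molecular identifiers. The alternatives were DESeq2 1.42.0, limma 3.58.1 (voom, and trend on log2(FPKM + 1) or + 0.1), other size factors, filters and dispersion, a lowess correction (span 0.5) for gene length within each library, a threshold of 0.1 and each heart left out. Fits were tested on simulated data with known changes. These were placed only in genes with a mean above 1 CPM over the 6 hearts, which leaves out *Phox2a*, *Th*, *Dbh* and *Ret*. No gene length trend was simulated.

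The members and lists were chosen with earlier results of these data known. Named genes are the members, from each list those called or the 2 with the smallest p, a defining gene of each cell type (2 of these are not reported here), *Wt1*, and the 5 unlisted genes most like the members' mean. The lists cover neuronal specification and catecholamines, cholinergic, general neuron, glia, GDNF and neurotrophin, melanocyte, sensory, foregut and lung, hepatocyte and cardiomyocyte genes. Samples of a group are separate hearts. Positions are from GENCODE M21 (GRCm38), and promoter sequences from RefSeq (GRCm38.p6).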

Additional observations from a re-analysis of the deposited data

How the results depend on the processing

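No paired analysis was possible because no label pairs mutant with control embryos. Depth limits the rarest members, *Phox2a* most, which had 3 to 60 counts a heart. Genes called by edgeR numbered 0 with all hearts, 133 with DESeq2, 34 without a filter on low counts, 6 after the gene length correction, 6 at an adjusted p under 0.1, and 0 to 44 with 1 heart left out, the 44 without wild type replicate 5. Chosen after the data were seen, the length correction without wild type replicate 5 called 40 genes, and DESeq2 without wild type replicate 2, 3 or 5 called 96, 107 and 447 genes and without mutant replicate 1, 5 or 10 called 138, 71 and 71. Of the 8 members, DESeq2 called 1 with all hearts and 0 to 1 with 1 left out, and 0 were called in every edgeR and limma fit. Members with an unadjusted p under 0.05 numbered 2 with DESeq2 and with no filter on low counts, 1 to 2 with 1 heart left out in edgeR and 1 to 3 in DESeq2. Members whose groups did not overlap numbered 1, or 1 to 4 with 1 heart left out, 4 without wild type replicate 2.

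*Prph* kept its sign in all 23 alternatives, with a log2 fold change of 1.45 in DESeq2 and 1.27 to 1.68 there with 1 heart left out (1.59 without wild type replicate 3, 1.51 without wild type replicate 5). Its adjusted p ran from 0.00259 to 0.9999 over the alternatives, and the lowest value was 0.60 on the log2(FPKM + 1) scale, where a pseudocount shrinks low genes. *Phox2a* turned positive without wild type replicate 5 (0.56 in edgeR, in DESeq2 and with the length correction), from a range of −1.64 to 0.56 with 1 heart left out and −1.66 to 0.56 in DESeq2. *Dbh* turned positive without the same heart (0.18, and 0.16 with the length correction), from a range of −0.55 to 0.18 in both tools. *Ret* turned negative with upper quartile factors (−0.045), on the log2(FPKM + 1) scale (−0.00094), after the length correction (−0.20) and with single hearts left out, over a range of −0.34 to 0.73 in edgeR and −0.35 to 0.73 in DESeq2 (−0.16 without wild type replicate 3, −0.26 without mutant replicate 5). The cause was not tested.

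With 1 heart left out, listed genes with an unadjusted p under 0.05 numbered 2 to 3 for general neuron genes, 1 for sensory genes, 1 to 4 for specification and catecholamine genes, 0 to 1 for cholinergic, melanocyte and foregut genes, 0 to 2 for glia and for cardiomyocyte genes, 2 to 4 for growth factor genes and 0 to 4 for hepatocyte genes, the 0 without wild type replicate 3. DESeq2 gave the hepatocyte genes 0, as it set no p for genes with an outlying count.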
